A study of Mus with 2 samples.

Results

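The genes described here drive cells through G2 and mitosis. They are 53 named genes, comprising mitotic kinases and cyclins, kinetochore, spindle and cytokinesis genes, condensin subunits and the transcription factors of the late cell cycle. They were named by function, with earlier results of these data known, and were found as the probes whose transcript accession maps to 1 of these gene symbols; no measured value entered that rule. All 53 had at least 1 probe on the array, 71 probes in all, out of 20060 genes with a matched probe. Of the 53 genes, 51 gave a signal well above background on at least 1 array and are called measured below, out of 13533 measured genes.

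BMDMs are macrophages grown from bone marrow with M-CSF. The cells came from male C57BL6/J mice (10 weeks old) and had 7 d of M-CSF at 10 ng/mL. All cells then received IL-4 at 10 ng/mL for 24 h, the M2 condition, together with DMSO as the solvent control or with 10 µM GW4064, a synthetic agonist of the bile acid receptor FXR. There was 1 array for DMSO and 1 for GW4064, so that no difference below has a replicate error or a p-value, and the number of mice behind each array was not given. The title, source and treatment labels agree on which array is which, although the free-text description of the GW4064 array repeats that of the DMSO array.

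Most mitotic genes are transcribed in a wave that peaks in G2 and M and are shut off in resting cells. In G1 and in resting cells the DREAM and RB complexes repress them, and B-MYB and FOXM1 activate them later in the cycle. Their summed level in a culture is therefore widely read as a measure of how many cells are cycling. M-CSF is a mitogen for bone marrow macrophages, and BMDM cultures contain dividing cells. In RNA from a whole culture, a change in the number of cycling cells and a change in RNA per cycling cell cannot be told apart.

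On the GW4064 array most of the mitotic genes were higher by a small amount. Of the 51 measured genes, 44 were higher and 7 were lower than on the DMSO array. Among all 13533 measured genes, 51.6% were higher and 48.2% were lower. The median log2 difference of the 51 genes was 0.12, or 1.09-fold, against 0.0069 for all genes. No mitotic gene reached 1.5-fold in either direction, whereas 4.39% of all genes were higher and 5.56% were lower by 1.5-fold or more. Likewise no mitotic gene reached 2-fold, compared with 2.04% of all genes that were 2-fold or more higher and 2.71% that were 2-fold or more lower. The differences ran from -0.14 for Ndc80 to 0.33 for Cdk1, whose value includes 1 dim probe that was not well above background with DMSO. Which gene was highest changed with the processing, to Cdc25c after quantile normalization, Smc4 after the normexp background correction, Birc5 with the brightest probe of each gene and Ckap2l without a filter on dim probes. The quartiles of the mitotic genes were 0.044 and 0.18, a narrower span than the -0.12 and 0.13 of all genes. The 2 groups were not alike in signal. When only probes well above background on both arrays were used, all 51 mitotic genes stayed measured, against 12578 of the 13533 genes. The shares past 1.5-fold and 2-fold and the quartiles of all genes were not recomputed for those 12578.

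The direction depends on how the arrays are set against each other. The values above are on the log2 scale, after setting each array's own 75th percentile to 0 (1209 on the DMSO array, 1265 on the GW4064 array). Signals are given below as the scanner software wrote them, before this scaling, so that a signal has to be 4.66% higher on the GW4064 array to give a difference of 0. When the arrays were instead centred on the control RNA that was added to each sample during labelling, 12 mitotic genes were higher and 39 were lower, with a median of -0.064. In that setting 18.2% of all genes were higher and the median of all genes was -0.18. The 8 control RNA probes themselves differed between the arrays by 0.034 to 0.24, with a median of 0.19. The scalings differ by 1 constant for all genes, so that the place of a gene relative to the median of all genes is the same in both by construction. Of the mitotic genes 44 of 51 lay above that median, against 50% of all genes. Statements of "higher" below refer to the 75th percentile scaling.

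**Figure D1:**
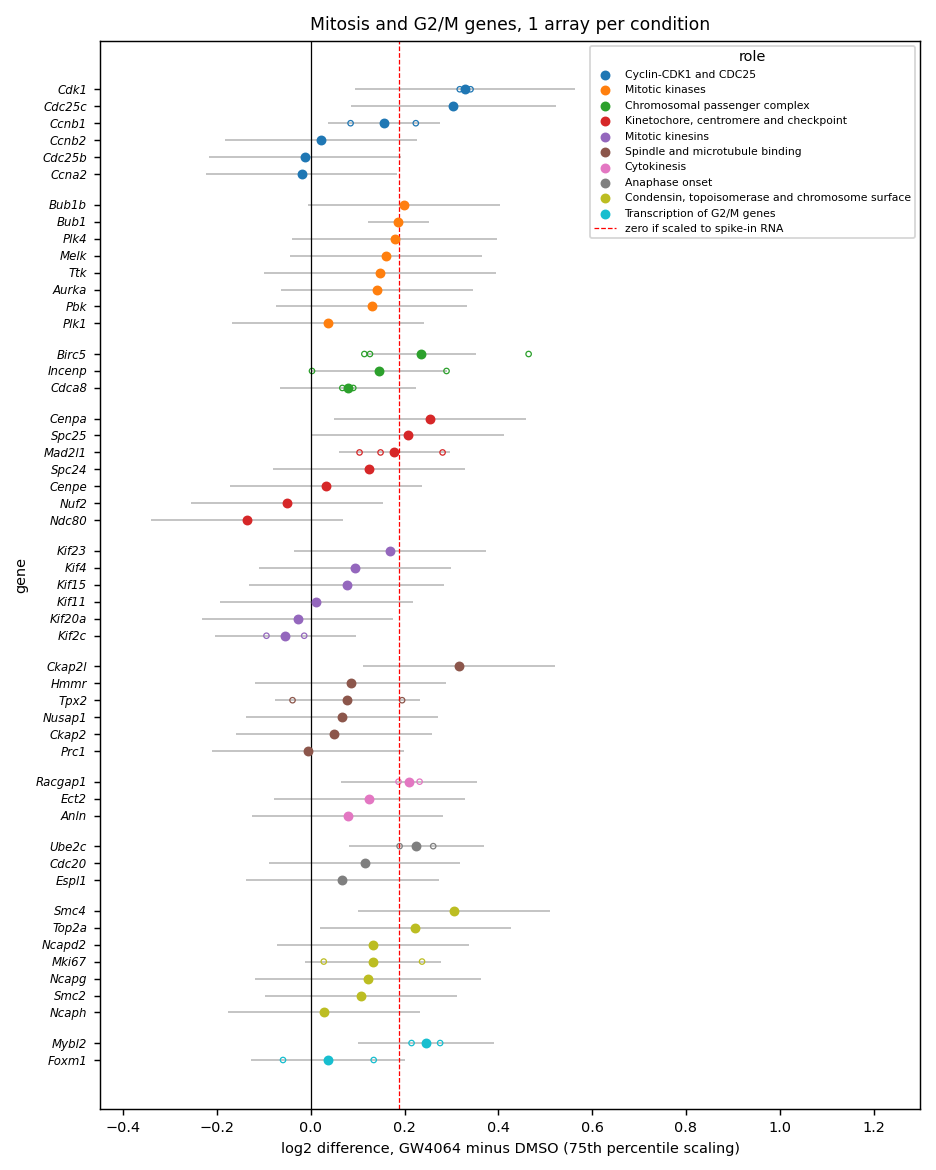
Log2 difference of each measured mitotic gene between the GW4064 and DMSO arrays (x axis), with genes grouped by role (y axis, colours). Filled points are genes, open points the single probes of genes with several probes, and grey bars the error that the scanner software assigns to the difference. Most genes lie between 0 and 0.33, and the red dashed line at 0.19 marks where 0 would lie if the arrays were scaled to the control RNA.

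The precision of a single difference was limited by the reading of the spots. The scanner software gives each signal an error, which combined over both arrays had a median of 0.20 on the log2 scale for the 51 genes. By this measure 15 mitotic genes (29.4%) were higher by more than their own error and 0 were lower by more than it. The shares of all genes were 16.1% and 15.6%. These counts hold for the percentile scaling only. With the arrays centred on the control RNA, the highest mitotic value, 0.14 for Cdk1, lay below its error of 0.23. In that setting Ndc80 (-0.32, error 0.20), Kif2c (-0.24, error 0.15), Nuf2, Kif20a and Ccna2 were lower by more than their own error. Bub1 was the only mitotic gene whose probe was printed 10 times on each array. Before scaling, its signal ran from 513 over a median of 571 to 626 on the DMSO array. On the GW4064 array it ran from 643 over a median of 670 to 770. After scaling the copies overlapped, with a highest log2 value of -0.95 for DMSO and a lowest of -0.98 for GW4064. The mean scaled difference was 0.19 ± 0.14 (SD, n = 10 copies) and 9 of the 10 copies were higher. Over 234 probes printed several times and bright at every spot, the median SD of the difference was 0.077. This is a technical spread within 1 pair of arrays.

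**Figure D2:**
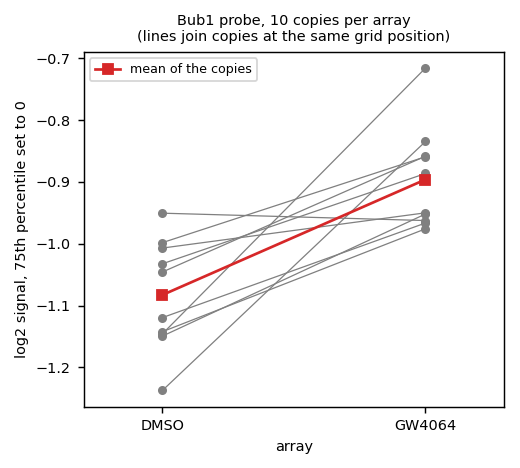
Log2 signal (y axis, 75th percentile of each array set to 0) of the 10 copies of the Bub1 probe on the DMSO and the GW4064 array (x axis). Grey lines join copies at the same grid position and the red squares are the means, which differ by 0.19.

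Cyclin-dependent kinase 1 and its partners start mitosis. Cdk1, the kinase itself, was read by 3 probes. The brightest had a signal of 1323 with DMSO and 1725 with GW4064, a difference of 0.32. Of its dim probes, 1 was not well above background with DMSO (17.6, against 23.3 with GW4064). It gave a difference of 0.34, below its software error of 0.42. The other was dim on both arrays. Ccnb1, which encodes cyclin B1, had 3 probes with signals of 1742 and 1934, 280 and 327, and 180 and 220 for DMSO and GW4064. All 3 were higher, by 0.085 to 0.22. The other cyclins of this stage hardly differed, with 0.022 for Ccnb2 (3193 and 3391) and -0.020 for Ccna2 (3026 and 3124). Of the CDC25 phosphatases, which remove the inhibitory phosphates from CDK1, Cdc25c was higher by 0.30 at a low signal (78.8 and 102) and Cdc25b differed by -0.012 (1075 and 1116). The 6 genes of this group had a median of 0.089.

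All 8 mitotic kinases of the next group were higher, with a median of 0.15 and a range of 0.037 to 0.20. Bub1b, the checkpoint protein BUBR1, had signals of 462 and 555 and a difference of 0.20. Plk4, which controls the doubling of centrioles, had 74.4 and 88.1, a difference of 0.18. Ttk, the checkpoint kinase MPS1, had 63.4 and 73.5, a difference of 0.15. Bub1, its partner at the kinetochore, is described above. Aurka, the kinase of the spindle poles, differed by 0.14 (2468 and 2848). The difference was 0.16 for Melk and 0.13 for Pbk. Plk1, which acts at many steps of mitosis, differed least, by 0.037 (3762 and 4039).

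The chromosomal passenger complex consists of the kinase Aurora B and its partners survivin, INCENP and borealin, and corrects faulty attachments of chromosomes to the spindle. The partners gave clear signals. Birc5, which encodes survivin, was read by 3 probes with differences of 0.11, 0.13 and 0.46. The last of these was also its brightest, with signals of 8627 and 12458, so that the gene value of 0.23 varied by probe. Incenp had probes with 0.29 (11994 and 15341) and 0.0025 (19943 and 20908), and the first of these lay in an area with stray spots, as defined below. Without that area the value of Incenp was 0.0025. Cdca8, borealin, had 0.091 and 0.067. The single probe for Aurkb itself read 3.22 and 3.10 and was too dim on both arrays to be measured, so that no difference is given.

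Kinetochores attach chromosomes to microtubules, and the 7 measured genes of this group had a median of 0.12, with 5 higher and 2 lower. Cenpa, the histone variant that marks centromeres, had signals of 1359 and 1696 and a difference of 0.25. The 4 subunits of the NDC80 complex, which binds the microtubule, differed in sign. Spc25 (8781 and 10610) and Spc24 (341 and 389) were higher, by 0.21 and 0.12. Nuf2 (441 and 445) and Ndc80 (413 and 393) had -0.051 and -0.14. Each of these differences is near or below the software error of 0.20 for 1 spot, and a second Nuf2 probe was not well above background. Mad2l1, the checkpoint protein MAD2, had 3 probes that were all higher, by 0.10, 0.15 and 0.28. Cenpe, a kinesin of the kinetochore, differed by 0.032 (3511 and 3757). The probe for Cenpf was also too dim on both arrays (8.07 and 9.69).

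Among the motor and spindle proteins the differences were smaller. The 6 mitotic kinesins had a median of 0.044. Kif23, the motor of centralspindlin, was the highest at 0.17 (468 and 550), followed by Kif4 (0.094), Kif15 (0.076) and Kif11 (0.012), the motor that separates the spindle poles. Kif20a, which acts at cytokinesis, differed by -0.028 (1580 and 1621), and Kif2c, which takes microtubules apart, by -0.054, with both probes lower. The 6 other spindle proteins had a median of 0.072. Ckap2l was highest at 0.32 (268 and 349), and the others lay close to 0. They were Hmmr with 0.085, Tpx2 with 0.078, Nusap1 with 0.067, Ckap2 with 0.050 and Prc1, which bundles the microtubules of the midzone, with -0.0058. The probes for Tpx2, the activator of Aurora A, disagreed in sign. The brighter one had -0.039 (1639 and 1670) and the dimmer one 0.19 (56.1 and 67.3).

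All 3 cytokinesis genes were higher. Racgap1, the partner of Kif23 in centralspindlin, had probes with 0.23 (895 and 1101) and 0.19 (1725 and 2055). Ect2, the exchange factor that activates RhoA at the cleavage plane, had 0.13 (736 and 840), and Anln, anillin, had 0.079 (2657 and 2937). The 3 genes that act at the onset of anaphase were higher as well. Ube2c, the ubiquitin-conjugating enzyme of the APC/C, had probes with 0.26 (2782 and 3489) and 0.19 (2497 and 2980), Cdc20, its activator, had 0.12 (2520 and 2856), and Espl1, separase, had 0.067 (366 and 402).

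Condensin compacts chromosomes, and its 5 subunits on the list were all higher, together with Top2a and Mki67, with a median of 0.13 over the 7 genes. Smc4, 1 of the core ATPases, had the largest difference of the group, 0.31 (3580 and 4629). Smc2, the other ATPase, had 0.11 (2405 and 2710), and the difference was 0.13 for Ncapd2, 0.12 for Ncapg and 0.028 for Ncaph. Top2a, which untangles sister chromatids, differed by 0.22 (1501 and 1834). Mki67, the gene of the proliferation marker Ki-67, had probes with 0.24 (8034 and 9911) and 0.028 (6674 and 7120), the first in an area of the slide with many stray spots. Of the factors that activate these genes, Mybl2, which encodes B-MYB, was higher on both probes, by 0.21 (2540 and 3085) and 0.28 (699 and 886). Foxm1 had 0.13 on its brighter probe (671 and 771) and -0.059 on its dimmer one (56.7 and 57.0).

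Of the 13 genes measured by several probes, 11 had the same direction on all of them, and the exceptions were Tpx2 and Foxm1. Between the size of the difference and the brightness of the gene there was a Spearman correlation of -0.020 and a Pearson correlation of -0.022 across the 51 genes, which share both arrays and are no independent replicates. Of the 71 probes, 11 had spots in areas where 2 or more other spots within 300 µm differed 8-fold or more between the arrays, and such areas covered 16.5% of the array. These were the probes for Cdc25c, Bub1b, Melk, Spc24, Spc25, Kif15, Ckap2 and Espl1, 1 probe each for Incenp and Mki67, and 4 of the 10 copies for Bub1. Without these spots 43 of the mitotic genes remained measured, of which 36 were higher and 7 lower, with a median of 0.11. Such areas are the ones called areas with stray spots in this text. Spots of any brightness counted towards them, and whether they are faults of the slide was not tested.

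**Figure D3:**
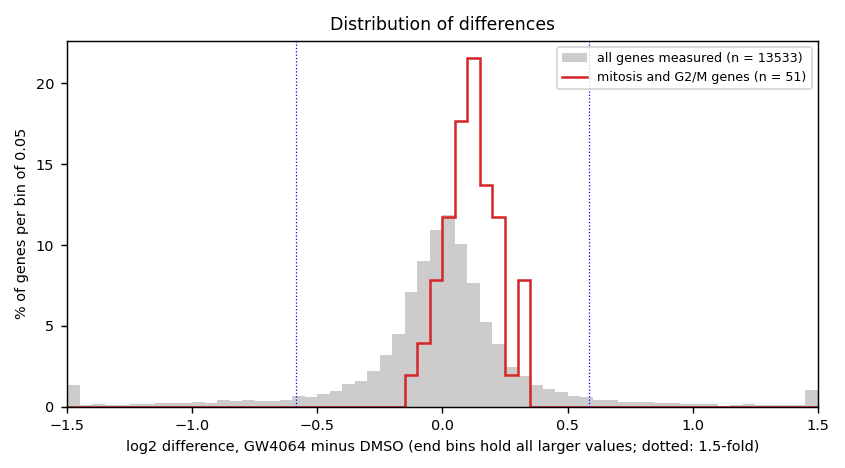
Share of genes (y axis, percent per bin of 0.05) by their log2 difference between the GW4064 and DMSO arrays (x axis), for all 13533 measured genes (grey) and the 51 mitotic genes (red line). Most mitotic genes sit to the right of the peak of all genes, 7 lie below 0, and all lie within the dotted lines at 1.5-fold.

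A second list held 67 other genes of G2 and mitosis. Of the 65 that were measured, 54 were higher and 11 lower, with a median of 0.14, and 1 was 1.5-fold or more higher. This gene was Cenpm, a kinetochore subunit, with 0.60 (170 and 269), at a spot in an area with stray spots. Psrc1, a spindle protein, followed with 0.57. The lowest was Cdkn3, a phosphatase that acts on cyclin-dependent kinases, with -0.30 (468 and 397), and Pttg1, the securin that holds separase, had -0.17 as the mean of probes with -0.34 and 0.0059. The median of this list was -0.046 when the arrays were centred on the control RNA and 0.075 after the normexp background correction.

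The medians of 3 related lists were nearer to the median of all genes. The 15 genes of the APC/C core had a median of 0.026, with 9 higher and 6 lower. The 10 genes of cohesin, the ring that holds sister chromatids together, and its regulators had a median of -0.043, with 4 higher and 6 lower. The 12 genes of the DREAM and RB complexes had 0.027, with 7 higher and 5 lower. None of these 3 lists held a gene at 1.5-fold in either direction. The DNA replication genes, which are made in the S phase before mitosis, had 37 of 41 genes higher and a median of 0.17.

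**Figure D4:**
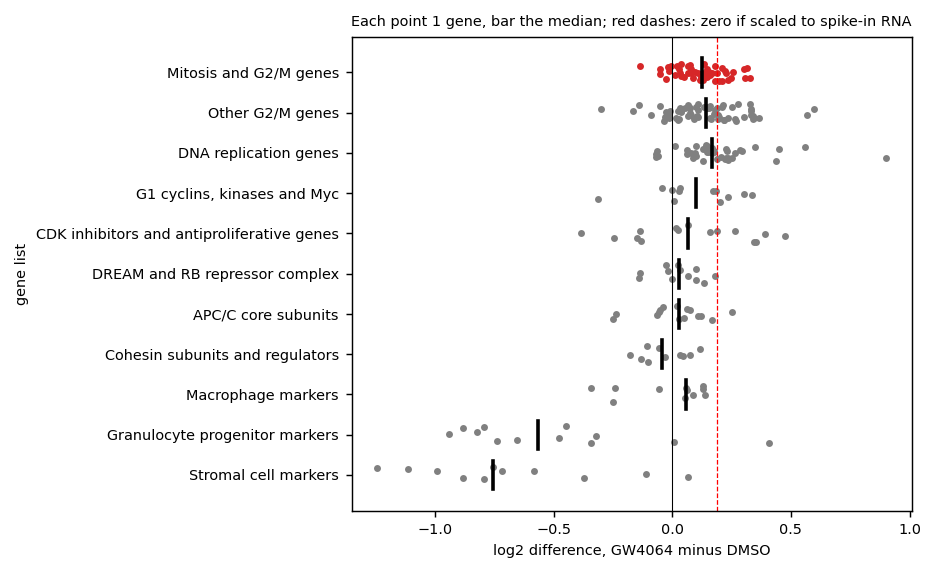
Log2 difference between the GW4064 and DMSO arrays (x axis) for the genes of each list (y axis), with 1 point per gene and a black bar at the median. The medians of the mitotic genes (red, 0.12), the other G2/M genes (0.14) and the DNA replication genes (0.17) lie to the right of 0. Those of the granulocyte progenitor (-0.56) and stromal cell markers (-0.76) lie to the left.

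BMDM cultures can hold other cells that divide, and markers of these were compared. The macrophage markers had 11 of 12 genes measured, with 7 higher and 4 lower and a median of 0.058. Their summed signals were 276805 with DMSO and 273457 with GW4064. The lowest were Mrc1 (-0.34), Adgre1 (-0.25) and Csf1r (-0.24), and the highest was C1qc (0.14). Cd68 was not matched to a probe here. The granulocyte progenitor markers had 12 of 13 genes measured, 2 higher and 10 lower. Their summed signal was 14999 with DMSO and 10277 with GW4064, and the median difference was -0.56. Mpo, the myeloperoxidase of these cells, had signals of 381 and 208 and a difference of -0.94, and Kit, the receptor of early progenitors, had -0.74 (37.9 and 23.8). Elane, neutrophil elastase, had -0.34. Prtn3, proteinase 3, was dim, at 9.59 with DMSO, which was not well above background, and 21.8 with GW4064. Its difference of 0.41 was a bound and lay below its software error of 0.61, at a spot in an area with stray spots. Cd34, another progenitor marker, had a gene value of 0.0075. Its bright probe had 0.22 (1936 and 2362), and its dim probe, not well above background with GW4064, had -0.21 (23.6 and 21.4). Most of the summed signal came from S100a8 (2638 and 2023) and S100a9 (8136 and 4614), which mature neutrophils also express. The stromal cell markers had 11 of 12 genes measured, 10 of them lower, with summed signals of 29235 and 16122 and a median of -0.76. Both marker lists were thus lower where the mitotic genes were higher, and their part in the result was not tested. Of the lymphoid markers 4 of 9 were measured, with summed signals of 1830 and 1720, and of the erythroid and mast cell markers 5 of 9, with 211 and 179.

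**Figure D5:**
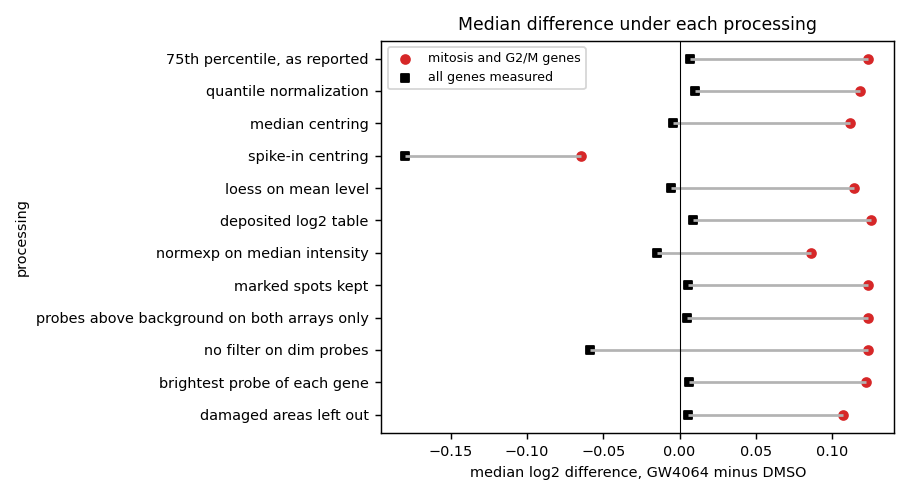
Median log2 difference between the GW4064 and DMSO arrays (x axis) of the mitotic genes (red points) and of all measured genes (black squares) under each processing of the arrays (y axis). The mitotic genes lie to the right of all genes in every row, by 0.10 to 0.18, and left of 0 only when the arrays are centred on the control RNA (-0.064).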

How the data were processed

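Total RNA was labelled with Cy3 and hybridised to 1-colour Agilent 44K mouse arrays, 1 for DMSO and 1 for GW4064. Per the file headers, Agilent Feature Extraction (version 10.7.1.1) gave the intensity of each of 43020 spots after background subtraction and spatial detrending, without scaling between arrays. A log2 table that the authors deposited for both arrays was used as an alternative, and differs from the intensities by a shift of each array and a centring of each probe on an unstated baseline. The column medians were 0.035 for DMSO and -0.051 for GW4064.

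From the intensities, log2 values minus the 75th percentile of each array were computed. Spots marked as non-uniform or as outliers were left out, and copies of a probe were averaged. Values not well above background on 1 array were raised, if below it, to that array's lowest signal well above background (15.7 and 15.1), which gives a bound. Probes dim on both arrays were left out. A gene is the mean of its probes. Symbols came from RefSeq accessions of GRCm38.p6, matched for 26445 of 39429 probes. No coordinates are given because the array's design used mm9.

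No test was possible with 1 array per condition. All 53 genes were described, with the extremes of the other lists. The members and lists were chosen with earlier results of these data known. Alternatives were other scalings (quantile, median, loess with a span of 0.3, spike-in RNA), a normexp background correction of the median spot intensity (offset 50), other filters, the brightest probe of each gene and leaving out areas with stray spots. The planned search of promoter motifs was not run. The calculations were tested on simulated data. Python 3.11.15, numpy 2.4.6, pandas 2.3.3, statsmodels 0.14.6, R 4.3.3 and limma 3.58.1 were used.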

Additional observations from a re-analysis of the deposited data

How the results depend on the processing

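No paired analysis was possible because there is 1 array for each condition. Centring on the spike-in RNA gave 12 mitotic genes higher and 39 lower, and turned the median of the mitotic genes to -0.064 and that of the other G2/M genes to -0.046. The cause of the gap between spike-in RNA and 75th percentile was not tested. Under the 10 other alternatives these medians stayed above 0 and the counts stayed within 1.5 times the reported ones. The median of the mitotic genes lay between 0.086 (normexp) and 0.13 (deposited table), and that of the other G2/M genes, reported as 0.14, was 0.075 with normexp. No alternative put a mitotic gene at 1.5-fold or more in either direction. Each gene rests on 1 array per condition and most on 1 spot per array, with differences near the software error, so that the depth of the data does not order the genes by size of difference.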

Other observations

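Within the DNA replication list, the 5 largest differences were those of Tyms, Lig1, Tk1, Orc1 and Dut. Tyms, thymidylate synthase, had signals of 72.0 with DMSO and 141 with GW4064, a difference of 0.90. Lig1, the ligase that joins Okazaki fragments, had 0.56, Tk1, thymidine kinase, had 0.45, Orc1, a subunit of the origin recognition complex, had 0.44, and Dut, which removes dUTP, had 0.35. Pcna, the sliding clamp, had -0.065 and Mcm4, a subunit of the replicative helicase, -0.060. With spike-in centring every value is lower by 0.19.

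Genes that hold cells out of the cycle moved both ways, with 10 of 15 higher and a median of 0.067. Cdkn2a had 0.47 at a low signal (53.5 and 77.8), Cdkn2d 0.39 at a spot in an area with stray spots, and Gadd45a 0.35. The 10 copies of the bright Cdkn1a probe, which reads the gene of p21, averaged 0.14 (9001 and 10386), and its dim probe had 0.55. Btg2, an antiproliferative gene, was lowest at -0.39 (1670 and 1337), at a spot in an area with stray spots, and Cdkn1b, the gene of p27, had -0.15. Of the genes that start the cycle, 9 of 12 measured were higher, with a median of 0.10. Cdk6 had 0.34 and Ccnd1, cyclin D1, had 0.18, whereas Ccnd3 had -0.31 and Myc -0.0027.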
